A study of Mus musculus with 8 samples.

Results

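The genes described here are 42 that carry out or regulate amino-acid supply in mouse cells: carriers that move amino acids across the plasma membrane, enzymes that make serine, glycine, asparagine, proline and folate-bound carbon units, cytosolic aminoacyl-tRNA synthetases, and the stress factors ATF4, ATF3, ATF5 and CHOP with some of their effectors. They were chosen by symbol from a table of 24918 entries of log2 normalized expression, and each symbol matched a single entry. All 42 passed the requirement of a mean log2 value of at least 5 over the libraries, as did 13269 entries in all. RNA came from whole corneas of male mice aged 3 months on a C57BL/6J/FVB background. In the corneaGRKO group (GRloxP/loxP-PAX6Cre/+) both copies of the glucocorticoid receptor gene were floxed and Cre was expressed from the Pax6 P0 promoter, which targets the corneal epithelium. The GRflox littermates (GRloxP/loxP-PAX6+/+) carried the same floxed gene and no Cre, so effects of Cre itself and of receptor loss cannot be told apart. The 4 libraries of a group bear the replicate numbers 1, 3, 4 and 5, and each was made from 4 to 6 pooled corneas.

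Cells that run short of an amino acid accumulate uncharged tRNA, which activates the kinase GCN2. GCN2, like the kinases PERK, PKR and HRI, phosphorylates the initiation factor eIF2-alpha, which slows protein synthesis overall while favouring translation of the transcription factor ATF4. ATF4, paired with C/EBP proteins, binds C/EBP-ATF response elements and raises transcription of amino-acid carriers, of enzymes of serine, asparagine and one-carbon metabolism, and of many cytosolic tRNA synthetases. Because ATF4 is controlled largely by translation, the level of its mRNA is only a partial measure of its activity. The healthy cornea has no blood vessels, and its epithelium takes up amino acids mainly from the aqueous humour.

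The short form of the C/EBP-ATF response element was found in the promoters of 14 of the 33 members that matched the RefSeq promoter table (42.4%), against 4.51% of all 27025 genes in that table. Promoters were windows of 300 bases, with 250 before and 50 after the annotated transcription start (build GRCm38.p6), and the element was searched on both strands as TGATGNAA. A longer form, TGATGNAAT, which contains the short one, was found in 4 of the 33 members (12.1%: Pycr1, Aars, Gars and Iars) and in 1.08% of all genes. Many of the members are textbook ATF4 targets, so this share describes the list and is no test of it. The short form was held by 5 of 8 matched member synthetases, 4 of 8 stress factors and effectors, 3 of 8 carriers and 2 of 9 biosynthetic enzymes. It was in 0 of 5 other cytosolic synthetases, 0 of 14 mitochondrial synthetases and 0 of 21 other amino-acid carriers, and in 5 of 18 other ATF4 response genes. Slc7a2, Slc7a3, Slc7a5, Slc1a5, Slc38a1, Nars, Wars, Cars and Lars had no entry in the promoter table, and the window of Mthfd2 held no match.

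The 250 bases upstream of the start are shown for an asparagine synthetase gene, a tRNA synthetase gene and a glutathione-degrading enzyme gene, to place the element in its promoter. Each sequence is RefSeq, runs 5′ to 3′ along the strand of the gene, and has the 8 bases of the short element in capitals. On the strand opposite to the gene the element reads TTNCATCA.
Asns, chr6:7693210-7693459, minus strand: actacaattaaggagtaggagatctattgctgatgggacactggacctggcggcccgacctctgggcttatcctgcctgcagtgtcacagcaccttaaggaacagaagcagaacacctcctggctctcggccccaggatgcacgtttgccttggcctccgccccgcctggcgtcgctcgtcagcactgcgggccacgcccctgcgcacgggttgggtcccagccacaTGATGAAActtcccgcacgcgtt
Aars, chr8:111033592-111033841, plus strand: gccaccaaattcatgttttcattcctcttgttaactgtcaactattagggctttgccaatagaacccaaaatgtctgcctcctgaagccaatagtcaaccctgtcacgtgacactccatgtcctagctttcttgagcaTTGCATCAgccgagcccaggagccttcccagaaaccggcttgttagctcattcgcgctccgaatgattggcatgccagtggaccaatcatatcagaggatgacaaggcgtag
Chac1, chr2:119350992-119351241, plus strand: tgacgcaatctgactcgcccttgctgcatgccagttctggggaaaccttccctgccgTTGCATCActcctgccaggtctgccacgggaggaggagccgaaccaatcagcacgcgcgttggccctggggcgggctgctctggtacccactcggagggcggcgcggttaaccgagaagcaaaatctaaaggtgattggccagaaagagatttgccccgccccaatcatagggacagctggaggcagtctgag

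Matches in other members are shown for the letters beside them. Each line holds 30 bases around a match, with the element in capitals, whose letters are alike because the search required it.
Slc7a11, chr3:50443661-50443690, minus strand: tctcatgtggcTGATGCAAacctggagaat
Slc1a4, chr11:20332699-20332728, minus strand: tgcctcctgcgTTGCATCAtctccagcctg
Pycr1, chr11:120643833-120643862, minus strand: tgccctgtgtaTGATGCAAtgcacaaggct
Atf3, chr1:191183425-191183454, minus strand: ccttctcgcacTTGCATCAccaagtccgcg
Vldlr, chr19:27216809-27216838, plus strand: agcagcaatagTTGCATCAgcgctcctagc
Gars, chr6:55037960-55037989, plus strand: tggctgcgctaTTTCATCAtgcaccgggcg
Iars, chr13:49682126-49682155, plus strand: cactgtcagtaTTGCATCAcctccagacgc
Tars, chr15:11399655-11399684, minus strand: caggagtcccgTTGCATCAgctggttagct
Yars, chr4:129189895-129189924, plus strand: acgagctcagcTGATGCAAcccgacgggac

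**Figure D1:**
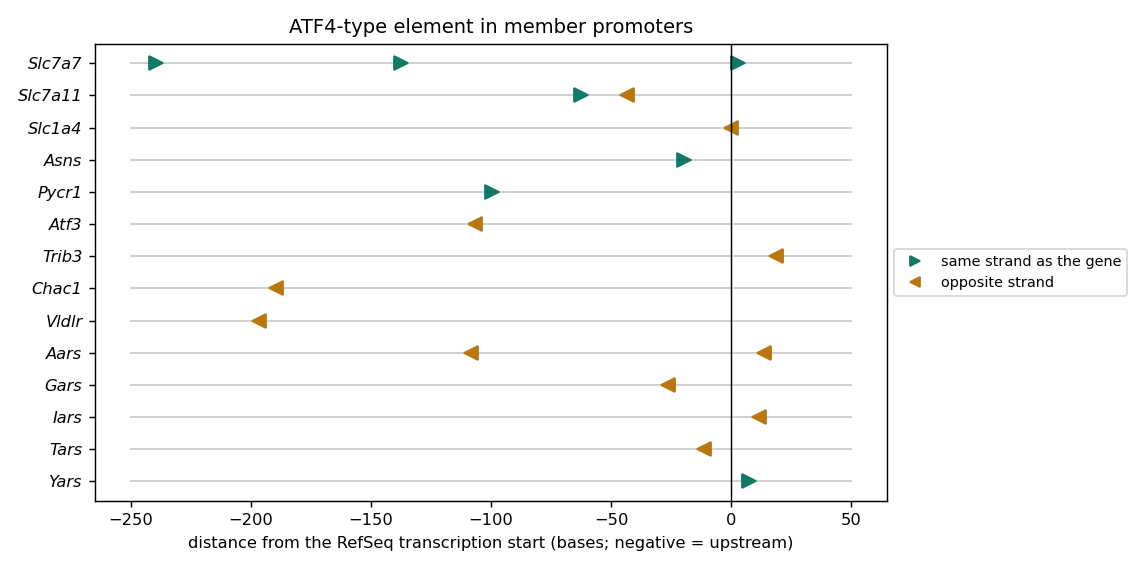
Positions of the short C/EBP-ATF response element in member promoters, as distance in bases from the RefSeq transcription start (horizontal axis) for the 14 members that held it (rows); right-pointing triangles lie on the strand of the gene and left-pointing ones on the opposite strand. The grey lines span the 300 bases searched, and the match of Slc7a7 farthest upstream is the site at its start seen from a second annotated start.

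The 14 members with the element differed in direction between the groups: 4 had a positive difference (Slc7a11, Slc1a4, Atf3 and Chac1) and 10 a negative one. In the test described next 0 of the 14 passed. Of all tested entries, 54.7% had a negative difference and 1.85% passed. Slc7a5 and Slc7a2, which passed, had no entry in the promoter table and so could not be among the 14. A match of letters does not show that ATF4 was bound there.

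Differences are corneaGRKO minus GRflox on the deposited log2 scale, tested with limma and adjusted by the Benjamini-Hochberg method over all 13269 entries, with 0.05 as the threshold. Nr3c1, the glucocorticoid receptor gene, had values of 10.61, 10.78, 10.83 and 10.78 in corneaGRKO libraries 1, 3, 4 and 5, against 11.07, 11.21, 11.28 and 11.34 in GRflox libraries 1, 3, 4 and 5, and fell by 0.47 (SE 0.064, limma adjusted p = 0.00767). Of all tested entries 1.85% passed, 176 higher and 69 lower. Corneal epithelium markers were well represented: the summed level of 10 ranged from 21.00 to 21.41 in corneaGRKO and from 21.23 to 21.46 in GRflox on the log2 scale, and 0 of them passed in limma, with 3 at an unadjusted p under 0.05. Krt12 averaged 19.93 in corneaGRKO and 20.11 in GRflox, with overlapping groups, while Krt14, Krt15 and Clu were higher in every corneaGRKO library than in any GRflox library. The summed level of 7 photoreceptor genes ranged from 8.17 to 10.24 in corneaGRKO and from 8.01 to 8.10 in GRflox on the log2 scale, highest in corneaGRKO libraries 4 and 1. In limma 4 of these were tested and 0 passed, with 1 at an unadjusted p under 0.05. The summed level of 8 conjunctival and goblet cell genes ranged from 15.84 to 16.58 in corneaGRKO and from 15.29 to 15.65 in GRflox. Of the 8, 6 were tested in limma, 3 rose (Krt19, Krt13 and Krt8), and 5 had an unadjusted p under 0.05. The goblet cell genes Agr2 (difference 0.02, limma adjusted p = 0.784), Muc5ac and Spdef had overlapping groups. Levels of Muc5ac and Spdef were too low to be tested. The summed level of 6 macrophage and leukocyte genes, all 6 of which rose, ranged from 11.47 to 11.85 in corneaGRKO and from 11.14 to 11.24 in GRflox. That of 9 keratocyte genes, of which Kera and Col5a1 fell and 0 rose, ranged from 18.30 to 18.60 in corneaGRKO and from 18.39 to 18.51 in GRflox. In limma, 5 of these 9 had an unadjusted p under 0.05. Among them were Fmod (0.74), Ptgds (0.38) and Ogn (0.38), with positive differences that did not pass. The summed level of 5 corneal endothelium genes, of which 0 passed in limma and 1 had an unadjusted p under 0.05, was lower in every corneaGRKO library (15.53 to 15.56) than in any GRflox library (15.57 to 15.62). That of 6 lens genes ranged from 9.71 to 11.18 in corneaGRKO and from 10.01 to 10.98 in GRflox, and that of 6 vessel genes from 10.50 to 10.68 in corneaGRKO and from 10.49 to 10.66 in GRflox. The vessel gene with the highest level, Kdr (mean 9.91 in corneaGRKO and 9.99 in GRflox), had a negative difference (-0.08). The other vessel genes had positive ones, and Lyve1 (0.36), Vwf (0.23) and Emcn (0.18) had groups that did not overlap. In limma 0 vessel genes passed, with 3 at an unadjusted p under 0.05. The summed level of 6 pigment cell genes ranged from 10.81 to 11.16 in corneaGRKO and from 10.60 to 10.72 in GRflox. Each of the 6 was higher in every corneaGRKO library than in any GRflox library. In limma 4 of them were tested, 1 rose (Tyrp1), and 4 had an unadjusted p under 0.05. No marker of these lists was at 0 in all libraries, and their part in the differences of the members was not tested. In whole tissue, fewer cells of a type and less RNA per cell cannot be told apart.

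Of the 42 members, 2 fell (Slc7a5 and Mthfd2), 1 rose (Slc7a2) and 39 did not pass, or 7.14% called against the 1.85% of all tested entries. Higher entries made up 1.33% of all tested entries and lower ones 0.52%. Negative differences outnumbered positive ones, 29 to 13, so that 69.0% of the members were on the negative side, against 54.7% of all tested entries. The median difference of the members was -0.08 and that of all tested entries was -0.01. In 12 of the 42 the values of the groups did not overlap (28.6%), against 10.5% of all tested entries. Of these 12, 9 were lower in corneaGRKO (4.61% of all tested entries were) and 3 were higher (5.89% of all tested entries were). An unadjusted p under 0.05 was reached by 18 of the 42 (42.9%), against 16.5% of all tested entries. Differences were small throughout, from -0.37 (Asns) to 0.33 (Slc7a2), all smaller in size than that of Nr3c1.

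**Figure D2:**
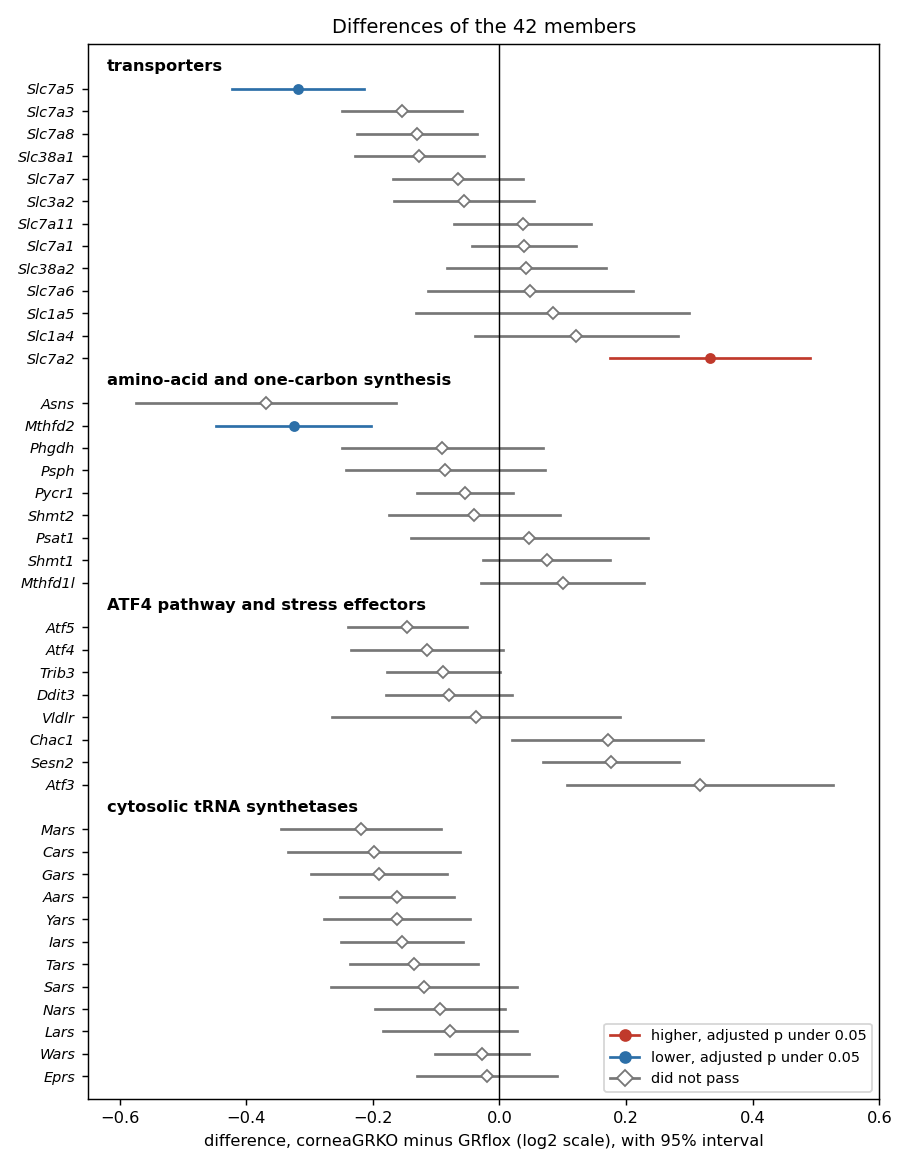
Differences of the 42 members between corneaGRKO and GRflox on the log2 scale (horizontal axis) with their 95% intervals from limma, grouped by role; filled circles passed the threshold and open diamonds did not. All 12 synthetases lie below 0, while the carriers lie on both sides.

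**Figure D3:**
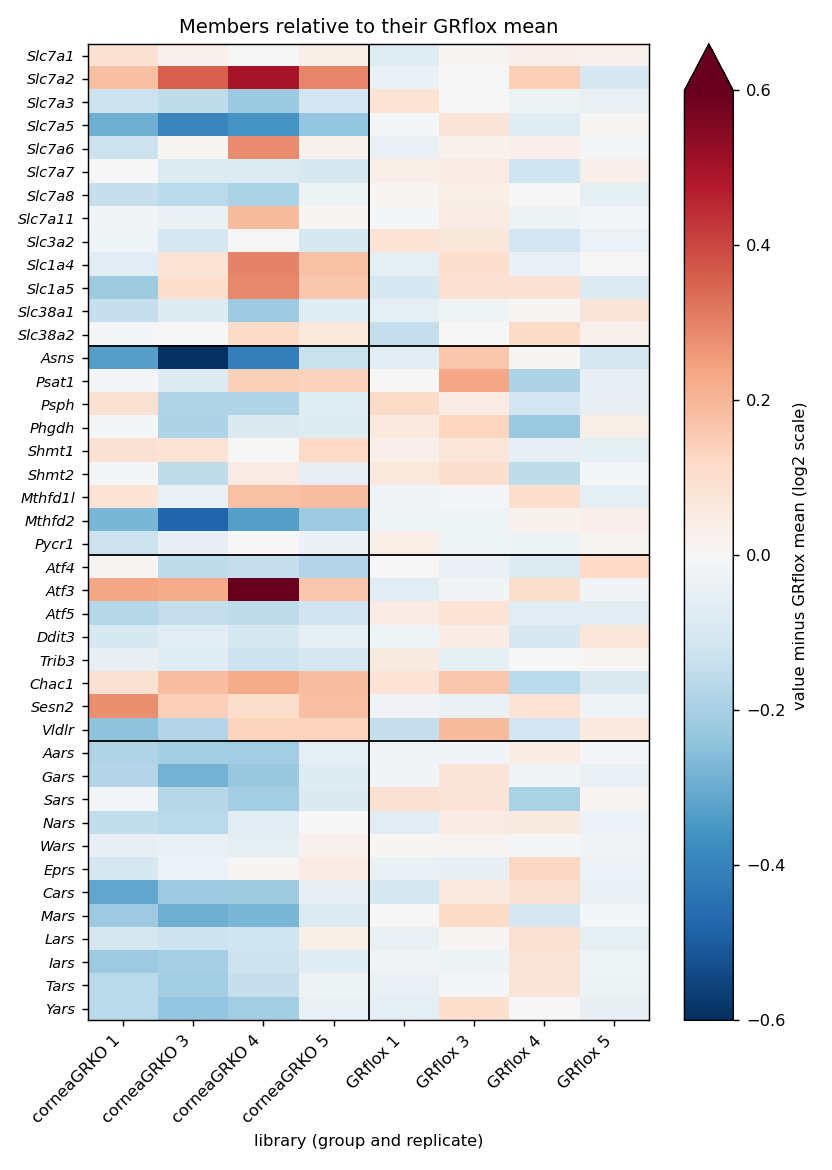
Each member's value in each library minus its mean over the GRflox libraries, on the log2 scale, with corneaGRKO libraries on the left. The scale ends at 0.6, and 1 value, that of Atf3 in corneaGRKO library 4 (0.65), lies above it.

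Among the 13 carriers, Slc7a5 fell, Slc7a2 rose and 11 did not pass, or 15.4% called against 1.85% of all tested entries. In limma 5 of the 13 (38.5%) had an unadjusted p under 0.05, against 16.5% of all tested entries. Slc7a5 encodes LAT1, the light chain of the main exchanger for leucine and other large neutral amino acids. It had values of 10.37, 10.26, 10.30 and 10.43 in corneaGRKO libraries 1, 3, 4 and 5, against 10.65, 10.73, 10.58 and 10.66 in GRflox libraries 1, 3, 4 and 5. All 4 corneaGRKO values thus lay below all 4 GRflox values, with the highest corneaGRKO value in library 5. The difference was -0.32 (SE 0.0469, 95% interval -0.42 to -0.21, limma adjusted p = 0.0103), and it passed in all 18 alternative settings, with adjusted p from 0.00201 to 0.0454.

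Slc3a2 encodes CD98, the heavy chain that carries LAT1 to the plasma membrane and pairs with other light chains too. Its values were 11.71, 11.64, 11.74 and 11.64 in corneaGRKO libraries 1, 3, 4 and 5, against 11.82, 11.81, 11.63 and 11.70 in the GRflox libraries in the same order. The groups overlapped, and the difference of -0.06 did not pass (95% interval -0.17 to 0.05, limma adjusted p = 0.592). The log2 ratio of light chain to heavy chain was -1.34 ± 0.0947 in corneaGRKO and -1.08 ± 0.0607 in GRflox (SD, n = 4 each). It was lower in all 4 corneaGRKO libraries than in any GRflox library, a difference of -0.26 (exact permutation test, two-sided, p = 0.0286, the smallest this design allows, and 0.0429 adjusted over 3 such pairs). The 3 pairs were chosen after their values were seen, and each holds a member that passed in limma, so their p-values are no separate evidence. With any 1 of the GRflox libraries left out, the exact permutation p was 0.0571.

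Slc7a2 encodes a carrier for arginine and lysine that is known from liver and from activated macrophages. It had values of 7.36, 7.53, 7.67 and 7.47 in corneaGRKO libraries 1, 3, 4 and 5, against 7.13, 7.17, 7.32 and 7.07 in the GRflox libraries in the same order. The groups did not overlap, but the lowest corneaGRKO value exceeded the highest GRflox value by little. The difference was 0.33 (SE 0.0711, 95% interval 0.17 to 0.49, limma adjusted p = 0.0475). Relative to their GRflox mean, the macrophage and leukocyte genes averaged 0.23, 0.48, 0.58 and 0.40 in corneaGRKO libraries 1, 3, 4 and 5. They were highest in library 4, as was Slc7a2, but they were not alone in this. Taken the same way, conjunctival, photoreceptor, pigment cell and keratocyte genes were also highest in library 4 among the corneaGRKO libraries. Corneal epithelium, corneal endothelium, lens and vessel genes were highest in other libraries. The macrophage, conjunctival and keratocyte means ranked the corneaGRKO libraries in the order of Slc7a2. The part of these lists in the difference of Slc7a2 was not tested. Of the annotated exonic bases of Slc7a2, 6.95% are shared with Gm26584, a long non-coding RNA gene on the opposite strand. The call was lost with quantile normalization (limma adjusted p = 0.0543), without the mean-variance trend (0.0503), and without corneaGRKO library 3 (0.148), 4 (0.0622) or 5 (0.0877) or GRflox library 1 (0.137), 3 (0.116) or 5 (0.154).

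Slc7a1, the carrier for arginine and lysine found in most tissues, had values of 12.09, 12.02, 12.00 and 12.03 in corneaGRKO libraries 1, 3, 4 and 5, against 11.92, 12.01, 12.03 and 12.02 in the GRflox libraries in the same order. The groups overlapped, with a difference of 0.04 (95% interval -0.04 to 0.12, limma adjusted p = 0.623). The log2 ratio of Slc7a2 to Slc7a1 was -4.53 ± 0.166 in corneaGRKO and -4.82 ± 0.0993 in GRflox (SD, n = 4 each), a difference of 0.29 that missed the threshold (exact permutation test, two-sided, p = 0.0571). Without corneaGRKO library 1 it was 0.36 (exact permutation p = 0.0286, not adjusted over the pairs). With each library left out in turn it ran from 0.23 to 0.36, with an exact permutation p from 0.0286 to 0.0857. The ratio passed in 1 of 11 alternative settings. Slc7a3, the third cationic carrier, was lower in all 4 corneaGRKO libraries (7.38, 7.35, 7.28 and 7.39 in libraries 1, 3, 4 and 5) than in any GRflox library (7.59, 7.50, 7.47 and 7.46). Its difference of -0.15 did not pass (limma adjusted p = 0.106).

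Light chains of the same heavy chain other than Slc7a5 did not pass. Slc7a8, which encodes LAT2, had a difference of -0.13 (limma adjusted p = 0.156). Slc7a6 and Slc7a7, whose products exchange cationic for neutral amino acids, stood at 0.05 and -0.07, and Slc7a11, the cystine and glutamate exchanger, at 0.04. The highest value of Slc7a6 (7.32) and that of Slc7a11 (6.05) were both in corneaGRKO library 4, and without that library their differences were -0.03 and -0.01. Slc7a7 shares 7% of its annotated exonic bases with Oxa1l on the opposite strand, and none of the sources used here says whether the authors counted reads by strand.

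The neutral amino-acid carriers of other families gave differences in both directions. Slc38a1, a sodium-coupled carrier of glutamine, was lower in all 4 corneaGRKO libraries (9.92 to 10.06) than in any GRflox library (10.08 to 10.21), with a difference of -0.13 that did not pass (limma adjusted p = 0.197). Slc38a2, a related carrier that is itself induced by amino-acid shortage, stood at 0.04. Slc1a4 and Slc1a5, which take up alanine, serine, cysteine and, for Slc1a5, glutamine, stood at 0.12 and 0.08, both highest in corneaGRKO library 4 (9.83 and 9.02) and lowest among the corneaGRKO libraries in library 1 (9.47 and 8.52).

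**Figure D4:**
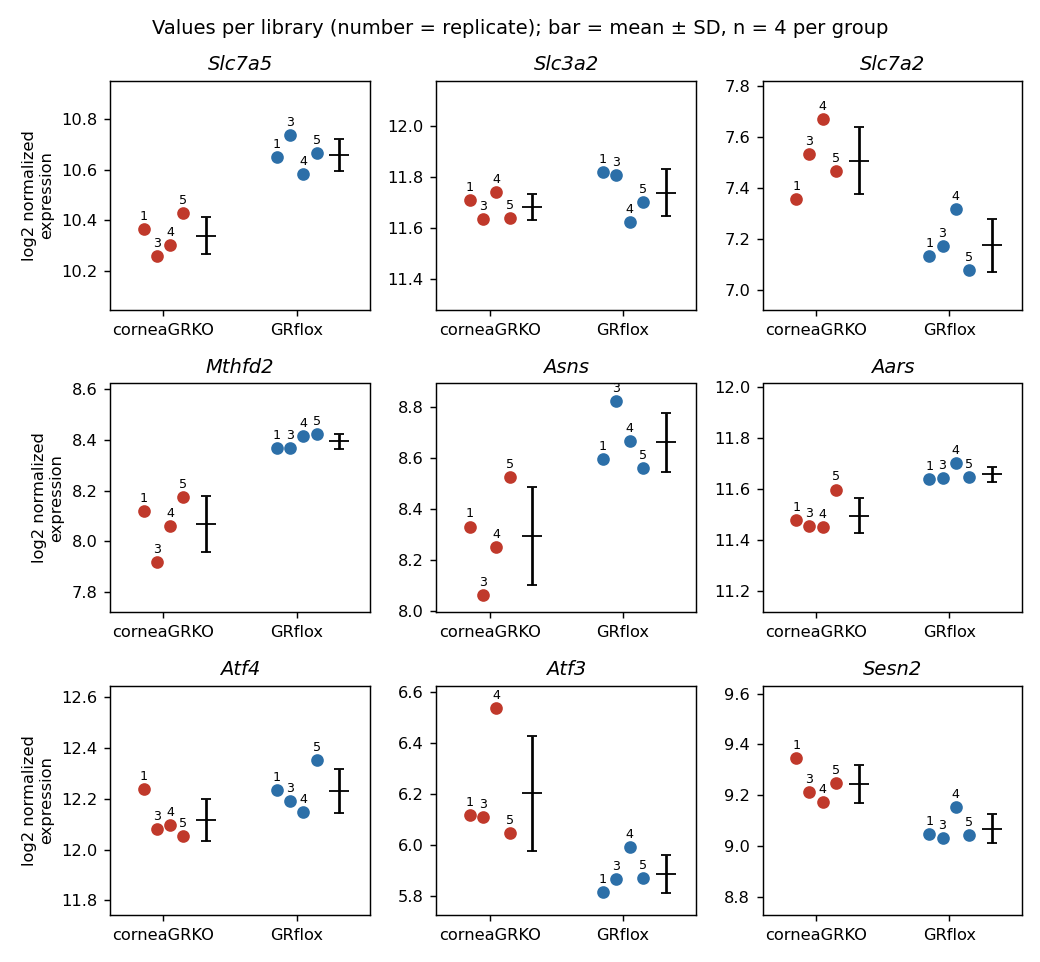
Log2 normalized expression (vertical axes, each spanning at least 0.9) of 9 members in each library, corneaGRKO left of GRflox, with the replicate number beside each point and the mean ± SD at the right of each group (n = 4). Slc7a5, Mthfd2, Asns and Aars lie lower in every corneaGRKO library than in any GRflox library, Slc7a2, Atf3 and Sesn2 lie higher, and Slc3a2 and Atf4 overlap.

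Among the 9 enzymes of serine, one-carbon, asparagine and proline synthesis, Mthfd2 fell and 8 did not pass, or 11.1% called against 1.85% of all tested entries. In limma 2 of the 9 (22.2%) had an unadjusted p under 0.05, against 16.5% of all tested entries. Mthfd2 is a mitochondrial enzyme that oxidizes folate-bound one-carbon units and is high in proliferating cells. It had values of 8.12, 7.92, 8.06 and 8.17 in corneaGRKO libraries 1, 3, 4 and 5, against 8.37, 8.37, 8.41 and 8.42 in the GRflox libraries in the same order. The groups did not overlap, and the GRflox libraries lay close together (SD 0.0305) while the corneaGRKO libraries spread more (SD 0.11). The difference was -0.33 (SE 0.0549, 95% interval -0.45 to -0.20, limma adjusted p = 0.0179). The call was lost without GRflox library 1 (0.0518), 3 (0.0517) or 5 (0.0746).

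Mthfd1l, which releases formate in the step after Mthfd2 in mitochondria, stood on the positive side, with values of 7.79, 7.66, 7.88 and 7.89 in corneaGRKO libraries 1, 3, 4 and 5, against 7.68, 7.69, 7.80 and 7.64 in the GRflox libraries in the same order. The groups overlapped, and the difference of 0.10 did not pass (limma adjusted p = 0.42). The log2 ratio of Mthfd2 to Mthfd1l was 0.26 ± 0.0632 in corneaGRKO and 0.69 ± 0.0672 in GRflox (SD, n = 4 each). This ratio was lower in all 4 corneaGRKO libraries than in any GRflox library, a difference of -0.42. An exact permutation test, two-sided, gave p = 0.0286, the smallest this design allows, and 0.0429 adjusted over the 3 pairs. The pairs were chosen after their values were seen, and Mthfd2 alone already kept the groups apart, so these p-values are no separate evidence.

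Asns, which makes asparagine from aspartate and glutamine, had the largest negative difference among the 42 members, -0.37 (SE 0.0924, 95% interval -0.57 to -0.16), and did not pass (limma adjusted p = 0.0784). Its values were 8.33, 8.06, 8.25 and 8.53 in corneaGRKO libraries 1, 3, 4 and 5, against 8.60, 8.82, 8.67 and 8.56 in the GRflox libraries in the same order. The groups did not overlap, but corneaGRKO library 5 lay just under the lowest GRflox library. Without corneaGRKO library 5 the difference was -0.45 and passed (limma adjusted p = 0.0428). With each library left out in turn it ran from -0.45 to -0.29 (limma adjusted p from 0.0428 to 0.186). It passed in 2 of 18 alternative settings. The Asns promoter printed above carries its element close to the start, on the strand of the gene.

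The serine pathway did not share the direction of Asns as a whole. Phgdh and Psph, the first and last enzymes of serine synthesis, stood at -0.09 and -0.09, and Psat1, which acts between them, stood at 0.05, each with overlapping groups. Shmt1 and Shmt2, which convert serine to glycine in the cytosol and in mitochondria, stood at 0.07 and -0.04. Pycr1, the last enzyme of proline synthesis, stood at -0.05. In corneaGRKO library 3 the mean over the 9 enzymes was lowest (-0.19 relative to the GRflox mean), and 7 of the 9 enzymes had their lowest corneaGRKO value there. Of the annotated exonic bases of Psph, 10.4% are shared with a transcript of Cct6a on the opposite strand.

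None of the 8 ATF4 pathway factors and stress effectors passed in limma, where 1.85% of all tested entries did. An unadjusted p under 0.05 was reached by 4 of the 8 (50%), against 16.5% of all tested entries. Atf4 itself had values of 12.24, 12.08, 12.10 and 12.05 in corneaGRKO libraries 1, 3, 4 and 5, against 12.23, 12.19, 12.15 and 12.35 in the GRflox libraries in the same order. The groups overlapped through corneaGRKO library 1, and the difference was -0.11 (95% interval -0.24 to 0.01, limma adjusted p = 0.327). Atf5, a related factor that is also controlled by translation and is induced by ATF4, was lower in all 4 corneaGRKO libraries (10.23, 10.25, 10.25 and 10.28) than in any GRflox library (10.44, 10.48, 10.33 and 10.33). Its difference of -0.15 did not pass (limma adjusted p = 0.12). Ddit3, which encodes the pro-apoptotic factor CHOP, and Trib3, a pseudokinase that restrains ATF4 and CHOP, stood at -0.08 and -0.09 with overlapping groups.

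The positive differences in this group were those of Atf3, Sesn2 and Chac1. Atf3, an immediate-early stress factor, had values of 6.12, 6.11, 6.54 and 6.05 in corneaGRKO libraries 1, 3, 4 and 5, against 5.82, 5.87, 5.99 and 5.87 in the GRflox libraries in the same order. The groups did not overlap, and corneaGRKO library 4, which also had the highest photoreceptor and conjunctival sums, lay far above the others. The difference was 0.32 (SE 0.0945, limma adjusted p = 0.127), and without that library it was smaller, 0.21, and passed (0.0483). Its limma adjusted p ran from 0.0483 to 0.288 with each library left out in turn. Sesn2, a leucine sensor that restrains mTORC1 and is also a p53 target, was higher in all 4 corneaGRKO libraries (9.35, 9.21, 9.17 and 9.25 in libraries 1, 3, 4 and 5) than in any GRflox library (9.05, 9.03, 9.15 and 9.04). Its difference of 0.18 did not pass (limma adjusted p = 0.102). Chac1, which degrades glutathione, stood at 0.17 (limma adjusted p = 0.242) with overlapping groups, and Vldlr, a lipoprotein receptor, at -0.04.

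All 12 cytosolic aminoacyl-tRNA synthetases among the members, the enzymes that attach amino acids to tRNA, had negative differences, and none passed in limma over all tested entries. Of all tested entries, 54.7% had a negative difference and 1.85% passed. The differences of the 12 ranged from -0.22 (Mars) to -0.02 (Eprs) with a median of -0.14. In limma 7 of the 12 (58.3%) had an unadjusted p under 0.05, against 16.5% of all tested entries. In 3 of the 12 (Aars, Gars and Iars, 25%) the groups did not overlap, each with corneaGRKO lower, against 10.5% of all tested entries in either direction and 4.61% with corneaGRKO lower.

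Aars, the alanine enzyme, had values of 11.48, 11.46, 11.45 and 11.60 in corneaGRKO libraries 1, 3, 4 and 5, against 11.64, 11.64, 11.70 and 11.65 in the GRflox libraries in the same order. The gap between the groups was narrow at corneaGRKO library 5, and the difference was -0.16 (SE 0.0407, limma adjusted p = 0.0797), which passed without that library (-0.20, 0.049). Across the fits with a library left out, the limma adjusted p of Aars ran from 0.049 to 0.22. Of the annotated exonic bases of Aars, 14.3% are shared with Exosc6 on the same strand. Gars, the glycine enzyme, had values of 11.51, 11.41, 11.46 and 11.61 in corneaGRKO libraries 1, 3, 4 and 5, against 11.67, 11.76, 11.67 and 11.64 in the GRflox libraries in the same order. Its groups were also closest at library 5, and its difference was -0.19 (SE 0.0484, limma adjusted p = 0.0821). Iars, the isoleucine enzyme, lay between 10.69 and 10.84 in corneaGRKO and between 10.88 and 10.98 in GRflox (difference -0.15, limma adjusted p = 0.111).

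Mars, the methionine enzyme, had the largest difference of the 12, -0.22 (SE 0.057, 95% interval -0.35 to -0.09, limma adjusted p = 0.0867). Its values were 10.71, 10.63, 10.65 and 10.84 in corneaGRKO libraries 1, 3, 4 and 5, against 10.93, 11.03, 10.83 and 10.91 in the GRflox libraries in the same order, so that only corneaGRKO library 5 reached into the GRflox range. The gene shares a small part of its exons with Ddit3 on the opposite strand (1.99% of its exonic bases). Cars, for cysteine, stood at -0.20, Yars, for tyrosine, at -0.16, Tars, for threonine, at -0.14, and Sars, for serine, at -0.12. Nars, for asparagine, stood at -0.09 and Lars, for leucine, at -0.08. The smallest differences were those of Wars, the tryptophan enzyme, which in human cells is also induced by interferon gamma (-0.03, 95% interval -0.10 to 0.05), and of Eprs, which joins the glutamate and proline enzymes in a single chain (-0.02, 95% interval -0.13 to 0.09).

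The libraries differed in how far the synthetases stood below the GRflox mean. The mean over the 12 was -0.15, -0.18, -0.15 and -0.03 in corneaGRKO libraries 1, 3, 4 and 5, against -0.03, 0.03, 0.02 and -0.03 in the GRflox libraries in the same order. Thus 3 corneaGRKO libraries lay well below all GRflox libraries, while library 5 lay beside GRflox libraries 1 and 5. In corneaGRKO library 5, 11 of the 12 synthetases had their highest corneaGRKO value. The lens genes, taken the same way, averaged 0.17, -0.45, -0.57 and 0.52 in corneaGRKO libraries 1, 3, 4 and 5, against -0.28, 0.33, 0.27 and -0.32 in the GRflox libraries in the same order. They too were highest in library 5 among the corneaGRKO libraries, and in GRflox libraries 3 and 4 among the controls. Their part in the synthetase values was not tested.

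Synthetases outside the member list had median differences nearer to 0 than the -0.14 of the members. Of 8 other cytosolic synthetases 5 (62.5%) had negative differences, against 54.7% of all tested entries. The median of the 8 was -0.05, with a range from -0.11 (Dars, limma adjusted p = 0.137) to 0.03. Qars, for glutamine, stood at -0.10 (limma adjusted p = 0.31). Of 17 mitochondrial synthetases 14 (82.4%) had negative differences, against 54.7% of all tested entries, and the median of the 17 was -0.04. In 5 of the 17 the groups did not overlap, each with corneaGRKO lower (29.4%, against 25% of the member synthetases and 4.61% of all tested entries). Among these 5 were Vars2 (-0.13, limma adjusted p = 0.113) and Nars2 (-0.14, limma adjusted p = 0.13). None of these 25 entries passed in limma, with 5 at an unadjusted p under 0.05 (1 of 8, 12.5%, and 4 of 17, 23.5%, against 16.5% of all tested entries), and the difference between these lists and the members was not tested. In corneaGRKO library 5 the list means were -0.03 for the members, -0.04 for the other cytosolic synthetases and -0.06 for the mitochondrial ones.

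**Figure D5:**
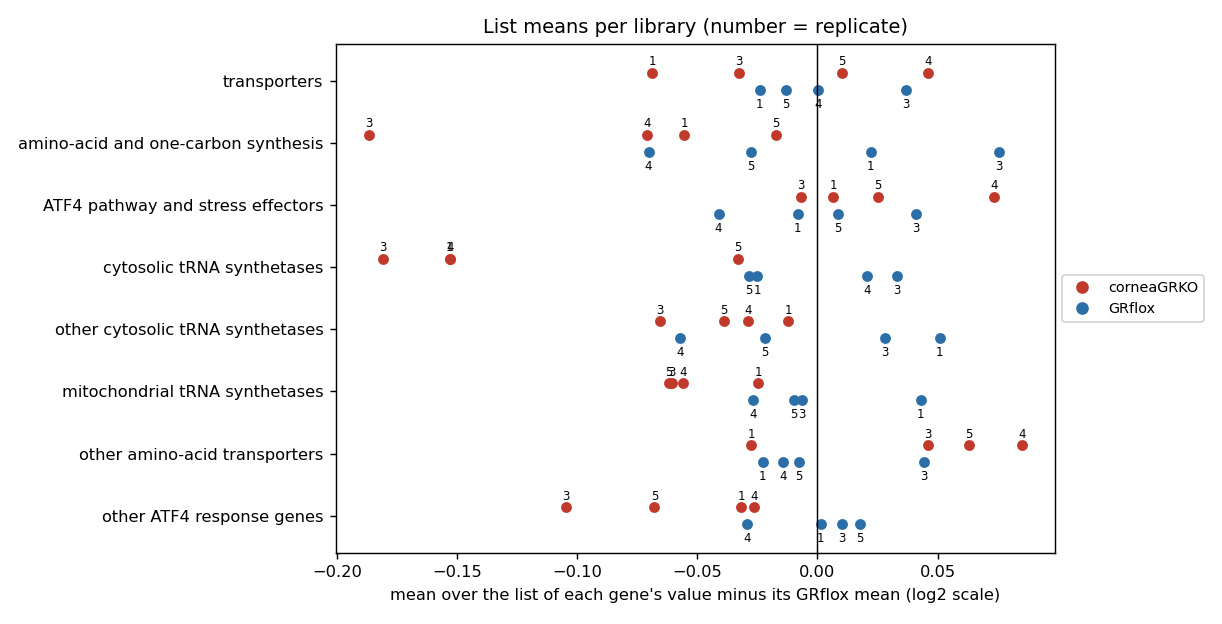
Mean over each list of each gene's value minus its GRflox mean, on the log2 scale (horizontal axis), for each library, with corneaGRKO above GRflox in each row and the replicate number beside each point. The 12 cytosolic synthetases of the member list lie between -0.18 and -0.15 in corneaGRKO libraries 1, 3 and 4 and at -0.03 in library 5, while the carrier means of the groups overlap.

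Other parts of the pathway were read from lists of genes that are not members. Of 21 tested further ATF4 response genes 1 fell and 0 rose (4.76% called, against 1.85% of all tested entries), with a median of -0.09. In limma 4 of the 21 (19%) had an unadjusted p under 0.05, against 16.5% of all tested entries. Ndrg1, which is induced by hypoxia and other stresses, fell by 0.25 (SE 0.044, limma adjusted p = 0.0221), with values of 11.96, 11.86, 11.76 and 11.84 in corneaGRKO libraries 1, 3, 4 and 5, against 12.07, 12.08, 12.12 and 12.14 in the GRflox libraries in the same order. Eif4ebp1, a repressor of cap-dependent translation, stood at -0.35 and did not pass (limma adjusted p = 0.0764), with groups that overlapped through GRflox library 4, and it passed without that library (-0.43, 0.0153) or without corneaGRKO library 1 (-0.39, 0.0424). Other fits with a library left out gave Eif4ebp1 a limma adjusted p of up to 0.204. The call of Ndrg1 was lost without corneaGRKO library 3 (limma adjusted p = 0.0829) or 5 (0.0632), or without GRflox library 1 (0.0558), 3 (0.0553) or 5 (0.0909).

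Among 15 genes of eIF2-alpha kinases, phosphatases and initiation factors, 1 rose (6.67% called, against 1.85% of all tested entries). In limma 3 of the 15 (20%) had an unadjusted p under 0.05, against 16.5% of all tested entries. Eif2ak2, which encodes PKR, a kinase activated by double-stranded RNA and itself induced by interferon, had values of 10.43, 10.48, 10.46 and 10.49 in corneaGRKO libraries 1, 3, 4 and 5, against 10.07, 10.07, 10.31 and 10.12 in the GRflox libraries in the same order. All corneaGRKO values lay above all GRflox values, and the difference was 0.32 (SE 0.0548, limma adjusted p = 0.018), a call lost without corneaGRKO library 3 (0.0742) or 5 (0.0557), or without GRflox library 1 (0.0621), 3 (0.059) or 5 (0.0744). Eif2b3, a subunit of the exchange factor that eIF2-alpha phosphorylation inhibits, stood at -0.14 (limma adjusted p = 0.179).

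The unfolded protein response arms that run through ATF6 and XBP1 held 0 of 18 genes past the limma threshold, with 2 at an unadjusted p under 0.05 (11.1%, against 16.5% of all tested entries) and a median of 0.03. Ern1, which encodes the sensor IRE1-alpha, stood at 0.11 (limma adjusted p = 0.185) and the disulfide isomerase gene Pdia3 at 0.11 (limma adjusted p = 0.237). Of 17 mTORC1 and amino-acid sensing genes 0 passed in limma, with 3 at an unadjusted p under 0.05 (17.6%), among them Rheb, the activator of mTORC1, at -0.15 (limma adjusted p = 0.192) and Sesn3 at 0.11 (0.256). Of 8 NRF2 response genes, which share Slc7a11 as a target with ATF4, 0 passed in limma, with 1 at an unadjusted p under 0.05 (12.5%). In that list Gclm, a subunit of the rate-limiting enzyme of glutathione synthesis, stood at 0.21 (limma adjusted p = 0.15), and Nfe2l2, which encodes NRF2, stood at 0.11 (limma adjusted p = 0.334). Of 19 other amino-acid carriers tested, 0 passed in limma, with 3 at an unadjusted p under 0.05 (15.8%) and a median of 0.05. Slc6a20a, a proline carrier, stood at 0.19 (limma adjusted p = 0.0829), and Slc1a3, a glutamate carrier, at 0.13 (limma adjusted p = 0.126).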

How the data were processed

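The values analysed are on a log2 scale, were normalized between libraries by the authors, and were deposited as a table with a column for each of the 8 libraries and 0 further value columns. The submitters' processing notes name Bowtie2, HTSeq and DESeq2, without versions. The build is mm9 in those notes and mm10 in the labels' extraction protocol, so positions are given only for RefSeq promoters. The labels give 75 nt read pairs and more than 40000000 reads per sample. Because the depth of a single library is unknown, no interval for counting error is given. How the log2 values were derived from counts is unknown. GRflox libraries had a median SD of 0.0144 at means of 2 to 3 and of 0.0681 at means of 10 to 11, so low values appear shrunken and their differences may be understated.

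limma 3.58.1 in R 4.3.3 was run on entries with a mean of 5 or more, with a mean-variance trend and a term for group, two-sided, and adjusted by Benjamini-Hochberg over all of them. Each library is its own pool of corneas, and the p-values reflect variation among pools. On simulated data built on the 13269 tested entries, the test called 68% of genes changed by 0.25 and 96% of those changed by 0.5 for the comparison of corneaGRKO with GRflox. Ratios of members were compared by exact permutation over libraries. Overlapping exons were taken from GENCODE (GRCm38). No 2 libraries were duplicates (smallest median absolute difference 0.0427). The members and lists were chosen with earlier results of these data known. All members may be named. From each other list up to 5 entries past the threshold were named, or the 2 with the smallest adjusted p where fewer than 2 passed. Castor1 and Adgre1 of the lists had no entry under those symbols.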

Additional observations from a re-analysis of the deposited data

Results flagged for a closer look

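In 9 of 84 groups of 4 values (42 members in each genotype), 1 library lay apart from the other 3 by more than Dixon's 95% critical value, where chance flags about 1 in 20 groups (4.2 of 84). In the corneaGRKO group, library 4 was high for Atf3 (6.54, with the next value at 6.12), and library 5 was high for Wars (10.54) and Lars (11.19). In the GRflox group, library 4 was high for Sesn2 (9.15), Aars (11.70), Eprs (12.07) and Iars (10.98) and low for Slc7a7 (7.20), and library 1 was low for Slc7a1 (11.92). GRflox library 4 thus accounted for 5 of the 9.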

How the results depend on the processing

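The median difference of the members kept its sign in all 18 alternatives (-0.09 to -0.06 with a library left out). With library weights, estimated from the same libraries, 1980 entries passed (973 higher and 1007 lower), with 3 members higher, 11 lower and 24 entries of the other lists. The members called then were Atf3, Sesn2 and Slc7a2 as higher, and Aars, Asns, Atf4, Atf5, Gars, Mars, Mthfd2, Phgdh, Sars, Slc7a3 and Slc7a5 as lower. With a library left out the counts ran from 68 to 574 entries, 0 to 1 members higher, 1 to 4 members lower and 0 to 4 entries of the other lists. The count of entries was lowest without GRflox library 5 (68) and highest without corneaGRKO library 1 (574). Quantile normalization and limma without the trend each left 0 members higher. The replicate number as a block gave 663 entries, 2 members higher (Atf3 and Slc7a2) and 4 entries of the other lists. Those numbers are not known to pair the libraries, since same-numbered libraries correlated from -0.28 to 0.51 in their deviations from the group means. Direction changed for members near 0. Slc7a11 stood at -0.0026 with quantile normalization, -0.0091 with library weights and -0.013 without both corneaGRKO libraries 1 and 4, Psat1 at -0.050 with library weights, and Eprs at 0.030 with library weights and 0.0066 without both those libraries. With a library left out Slc7a6 ran from -0.029 to 0.11, Slc7a11 from -0.014 to 0.062, Slc38a2 from -0.0058 to 0.081, Psat1 from -0.014 to 0.13, Vldlr from -0.095 to 0.030 and Eprs from -0.043 to 0.022. The causes were not tested.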
